A study of Mus musculus with 2 samples.

Results

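A set of 8 genes that connect gut lymphocytes to nerves was followed through the cells of both libraries: the neuropeptide gene Calca, the receptor genes Ramp1, Calcrl, Vipr1, Vipr2, Nmur1 and Adra2a, and the receptor tyrosine kinase gene Ret. They were chosen by name, as 8 of the 17238 genes in the deposited table of counts, with no threshold on a measured value. Innate lymphoid cells (ILCs) had been sorted as IL7ra+ ILC from C57BL/6 mice aged 8 weeks, with 1 library for each of small intestine and colon, and both libraries carry the label "Fed". Each library was a pool of 8 mice, so no value below has a replicate and no test between tissues was possible. Cells were grouped by at least 1 unique molecular identifier (UMI, a count of captured transcripts) of Ccr6, Ncr1, Gata3, Klrd1 or Cd3e, written Ccr6+ and so on. These groups overlap, and comparisons between groups therefore used cells with exactly 1 of the 5 markers, written "Gata3 only" and so on.

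ILCs carry no antigen receptor and answer to signals from their surroundings, among them peptides and catecholamines released by nerves of the gut wall. Calca encodes the neuropeptide CGRP (calcitonin gene-related peptide) as well as calcitonin from the same gene, and the CGRP receptor is a complex of the receptor encoded by Calcrl with the accessory protein encoded by Ramp1. VIP (vasoactive intestinal peptide) is read by VPAC1 and VPAC2, the products of Vipr1 and Vipr2, and neuromedin U by the product of Nmur1, known for its activation of group 2 ILCs (ILC2). Ret signals for GDNF-family ligands, which enteric glia supply to group 3 ILCs (ILC3), and Adra2a encodes an alpha-2 adrenergic receptor for noradrenaline.

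The small intestine library held 5490 cells with a median of 2579 UMIs and the colon library 7549 cells with a median of 2600, as counted over the genes of the table. Levels are given as UMIs of a gene per 1000000 UMIs of the same cells (CPM), with 95% intervals that cover counting error only. Il7r, which encodes the receptor used for the sort, had a UMI in 83.7% of small intestine cells and 67.5% of colon cells. Markers of other cells were present in part: 429 and 1384 cells had a UMI of the T cell gene Cd3e, and the summed level of 7 epithelial markers was 45.4 and 10.9 CPM. The 6 B and plasma cell markers, antibody genes among them, summed to 7188 and 2454 CPM. Neural markers were near 0, with 6 enteric neuron markers summing to 0.332 and 0.582 CPM and Snap25 at 0, and 4 enteric glia markers to 2.32 and 1.30 CPM with Sox10 at 0. The libraries shared 60 barcodes against 56.2 expected by chance.

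Calca lies on chromosome 7 at 114631478 to 114636357 (minus strand), Ramp1 on chromosome 1 at 91179822 to 91225196 (plus strand) and Vipr2 on chromosome 12 at 116077726 to 116146261 (plus strand), in GENCODE vM21 on mm10. RefSeq start sites on GRCm38.p6 were at hand for 7 of the 8 genes, all but Ret. The 250 bases before the start are shown for Calca, Ramp1 and Vipr2, which carried clear differences between groups or tissues in the counts below. Windows were searched on both strands for GATAA, the core bound by GATA factors, AGGTCA, a core bound by nuclear receptors, and TGACG, the core of the cAMP response element, and matches are in capitals.
Calca promoter, chr7:114636358-114636607, minus strand: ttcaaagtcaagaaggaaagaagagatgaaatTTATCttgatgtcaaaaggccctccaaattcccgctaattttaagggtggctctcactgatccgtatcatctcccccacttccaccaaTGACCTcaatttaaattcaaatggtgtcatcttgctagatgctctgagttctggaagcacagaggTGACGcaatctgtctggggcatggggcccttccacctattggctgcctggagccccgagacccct
Ramp1 promoter, chr1:91179572-91179821, plus strand: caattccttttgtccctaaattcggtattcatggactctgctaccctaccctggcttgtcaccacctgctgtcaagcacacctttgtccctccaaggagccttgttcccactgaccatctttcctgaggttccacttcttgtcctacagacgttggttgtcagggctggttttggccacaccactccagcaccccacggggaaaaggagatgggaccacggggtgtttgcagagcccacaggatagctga
Vipr2 promoter, chr12:116077476-116077725, plus strand: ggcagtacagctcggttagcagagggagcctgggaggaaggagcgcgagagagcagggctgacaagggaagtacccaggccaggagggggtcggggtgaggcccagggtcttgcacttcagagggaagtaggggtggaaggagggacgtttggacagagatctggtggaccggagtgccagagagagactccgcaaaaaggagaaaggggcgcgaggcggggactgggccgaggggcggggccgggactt
The Calca window held each of the 3 motifs on 1 occasion: GATAA in reverse (ttatc) starting at base -218, AGGTCA in reverse (tgacct) at -130 and TGACG at -65, counted back from the start. The Ramp1 and Vipr2 windows held 0 matches. Among windows not shown, 1 of Nmur1 held GATAA (at -132), and those of Vipr1 (at -13) and Adra2a (at -69) held TGACG. Of 32851 mouse promoter windows of this length, 22.6% held GATAA, 14% AGGTCA and 17.8% TGACG, so each motif alone is common, and a match is a description of letters and not a bound site.

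The ligand gene Calca was carried mainly by Gata3+ cells, and its difference between tissues turned with the group. Gata3 encodes a transcription factor of ILC2 that ILC3 also use at a lower level. Calca stood at 549.96 CPM (interval 530 to 571) in small intestine Gata3+ cells and 343 CPM (333 to 353) in colon Gata3+ cells, 1.60-fold higher in the small intestine (1.53 to 1.68). In Ccr6+ cells, the group that holds lymphoid tissue inducer cells, it stood at 43.1 and 53.9 CPM, and in Ncr1+ cells at 76.7 and 78.9 CPM. Intervals of the small intestine to colon ratio included 1 in both of these groups (0.57 to 1.12 and 0.81 to 1.17), and the Ccr6+ log2 ratio of -0.32 was -1.54 with at least 2 Ccr6 UMIs and 0.71 after thinning. Cells with none of the 5 markers went the opposite way, at 70.2 CPM against a colon level of 159 CPM, 2.26-fold higher in the colon (1.98 to 2.59). In these cells the B and plasma cell markers summed to 19338 and 11452 CPM. A fixed list of 8 ILC2 markers summed to 388 and 1131 CPM there, with Il1rl1 at 4.71 and 62.7 CPM. The part of either set of markers in the Calca values was not tested. Over all cells the levels were 221 and 249.8 CPM, 1.13-fold higher in the colon (1.08 to 1.18). Cells with no marker held 9.86% and 11.6% of the Calca UMIs. Gata3+ cells were 29.9% of small intestine and 55.9% of colon cells. The part of these shares in the value over all cells was not tested. Ratios between tissues are not corrected for the median gene, which was 0.22 higher in the small intestine on the log2 scale over all cells and 0.19 in Gata3+ cells; 0 of the 44 tissue ratios of these genes changed direction with that correction.

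Calca UMIs were unevenly spread over cells. In the small intestine 702 cells had a UMI, the highest cell held 46, and the 102 cells with 10 or more held 46.1% of all Calca UMIs. In the colon 1739 cells had a UMI, the highest held 28, and 100 cells with 10 or more held 22.8%. Over all cells Calca was thus seen in fewer small intestine cells (12.8% against 23.0%) with more UMIs in each. After thinning every cell to 1000 UMIs the shares were 8.58% and 13.8%. The order depended on Gata3. With 0, 1, 2 and at least 3 Gata3 UMIs the unthinned small intestine shares were 5.67%, 13.6%, 30.6% and 54.7%. The colon shares were 12.7%, 21.8%, 31.4% and 39.4%. Gata3+ cells held 83.8% and 83.01% of the Calca UMIs, while they were 29.9% and 55.9% of the cells. Free RNA could not be left aside here: barcodes with 10 to 50 UMIs, taken as empty droplets, had 210.2 and 244 CPM of Calca, and at the estimated 5.36% and 8.25% of UMIs in cells this would add 11.3 and 20.1 CPM to every group.

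**Figure D1:**
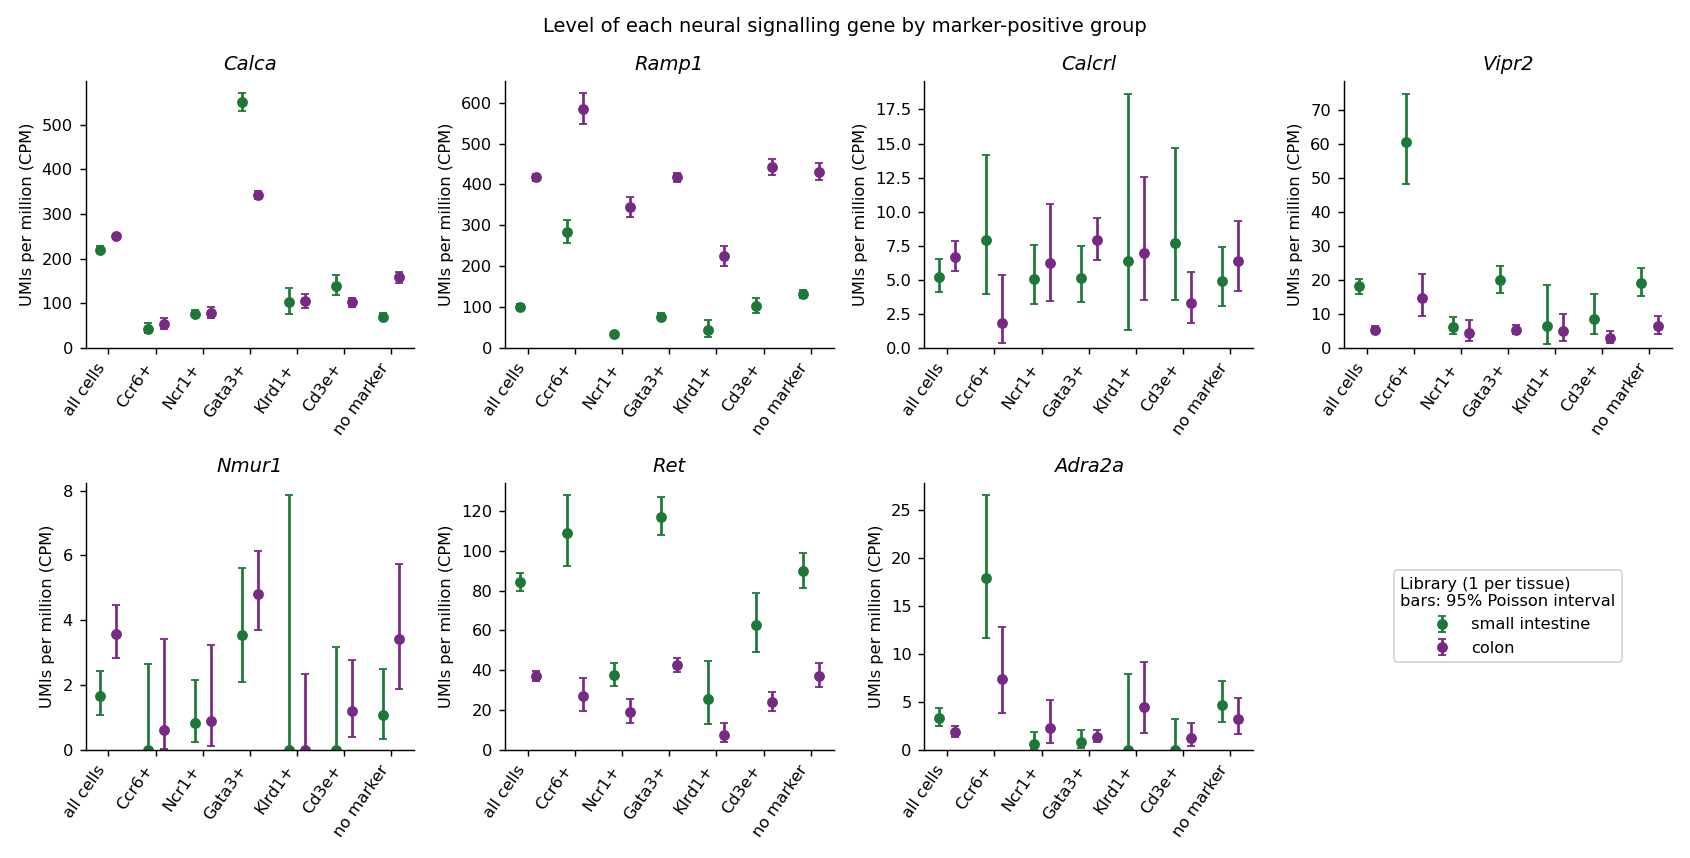
Level of each gene in CPM (vertical axis, from 0) for all cells, the 5 overlapping marker-positive groups and cells with no marker, in the small intestine (green) and colon (purple) libraries. Points are 1 library each and bars are 95% Poisson intervals; Calca peaks in Gata3+ cells at 549.96 CPM in the small intestine, while Ramp1 is higher in the colon in every group drawn.

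Between disjoint groups of 1 library, Calca was highest in Gata3 only cells. Small intestine Gata3 only cells had 724 CPM against 22.0 CPM in Ccr6 only cells, 32.9-fold (21.3 to 54.0), and 28.7 CPM in Ncr1 only cells, 25.3-fold (20.5 to 31.5). Colon Gata3 only cells had 404 CPM against 31.5 CPM in Ccr6 only cells, 12.8-fold (8.10 to 21.6), and 44.9 CPM in Ncr1 only cells, 8.99-fold (6.36 to 13.2). The lower levels of these contrasts lie close to those that free RNA would give, and with free RNA subtracted the log2 ratio of Gata3 only over Ccr6 only cells went from 5.04 to 6.05 in the small intestine and from 3.68 to 5.07 in the colon. Of the 6 genes with at least 20 UMIs in small intestine Gata3 only and Ccr6 only cells, 1 was at least 2-fold higher in Gata3 only cells (Calca), where 6.4% of all 8905 genes measured were. Another 3, Ramp1, Vipr2 and Adra2a, were at least 2-fold higher in Ccr6 only cells, against 10.3% of all genes. In the colon 2 of 6 were at least 2-fold higher in Gata3 only cells (Calca, and Calcrl with 2 UMIs in Ccr6 only cells), against 9.59%, and 1 of 6 in Ccr6 only cells (Vipr2), against 14.8%. Set against Ncr1 only cells, 4 of 5 genes were at least 2-fold higher in small intestine Gata3 only cells (Calca, Ramp1, Vipr2 and Ret), against 4.78% of all genes, and 0 lower by that measure, against 8.06%. In the colon 3 of 6 were higher (Calca, Ret, and Vipr2 with 1 UMI in Ncr1 only cells), against 9.17%, and 0 lower, against 10.0%.

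The tissue difference of Calca followed the number of Gata3 UMIs in a cell. In the small intestine Calca stood at 53.9, 188, 569.5 and 1013 CPM in cells with 0, 1, 2 and at least 3 Gata3 UMIs. In the colon the levels were 108, 241, 324 and 424 CPM. The ratio of small intestine to colon accordingly moved from 0.502 (0.451 to 0.558) at 0 UMIs through 0.778 and 1.76 to 2.39 (2.25 to 2.54) at 3 or more. Il22, the ILC3 cytokine gene, was higher in small intestine Gata3+ cells (2454 CPM) than in colon Gata3+ cells (1044 CPM). Its part in the Calca values was not tested, apart from the division by Gata3 UMIs given here.

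**Figure D2:**
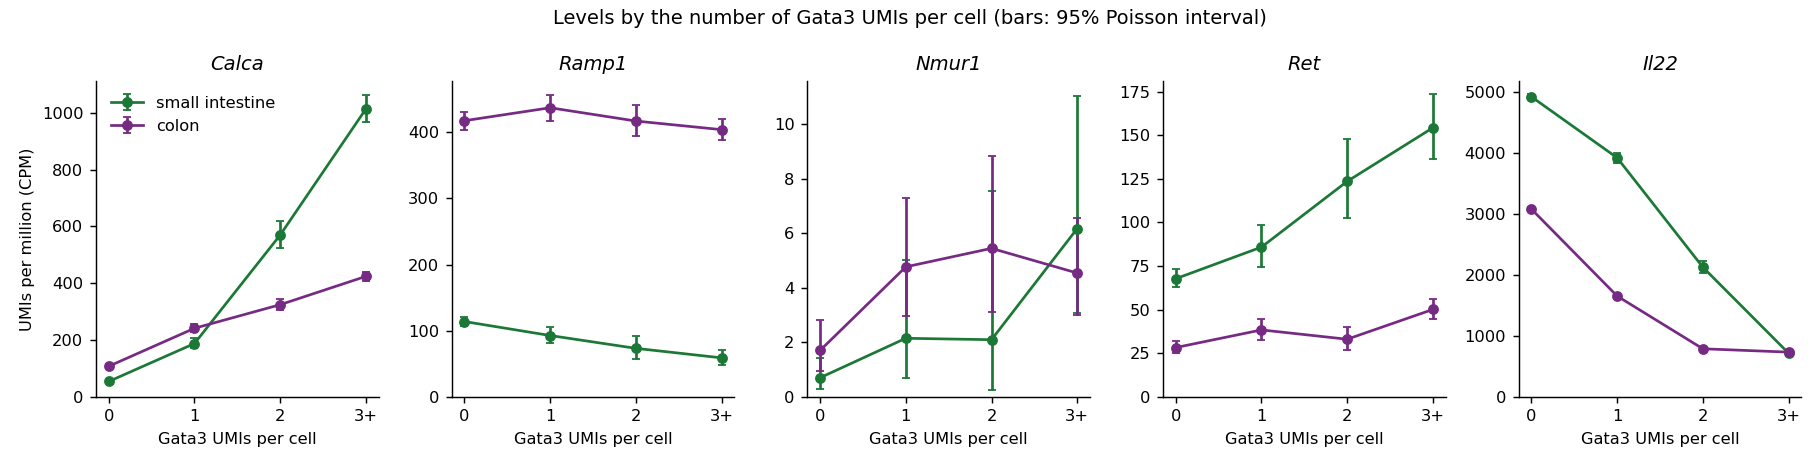
Level in CPM (vertical axis, from 0) of Calca, Ramp1, Nmur1, Ret and the ILC3 cytokine gene Il22 in cells with 0, 1, 2 or at least 3 Gata3 UMIs (horizontal axis), small intestine in green and colon in purple, with 95% Poisson intervals. Calca climbs to 1013 CPM (small intestine) and 424 CPM (colon), Ramp1 stays between 404 and 437 CPM in the colon, and Il22 drops to 715 and 732 CPM at 3 or more Gata3 UMIs.

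Clustering of all cells, with the 8 genes kept out, gave levels without the use of a single marker. The 12 clusters are named by number and leading genes. Cluster 1, led by Il5, Ccl1 and Hs3st1 and ILC2-like by 4 of 8 fixed ILC2 markers among its 10 leading genes, had 1467 CPM of Calca in 201 small intestine cells and 734 CPM in 1125 colon cells, a 1.998-fold difference (1.86 to 2.15). Cluster 8, led by Art2b, Cybb and Atp8a2 with Il17rb and Il4 also among its leading genes, was nearly all small intestine (650 cells) and had 858 CPM. Colon clusters 0 (Apbb2, Car7), 2 (Hes1, Csf1) and 3 (Cd24a, Ifitm3) had 246, 262 and 357 CPM. A cluster that is nearly all of 1 library may be that library and not a type of cell. Every other cluster and library with at least 50 cells was between 16.3 and 187 CPM. Within cluster 4 (Xcl1, Tyrobp, Klrd1), whose cells carry natural killer receptors, Calca was 2.19-fold higher in the small intestine (1.58 to 2.99) at 187 against 85.2 CPM. In cluster 11 (Gzma, Ccl5) it was 2.58-fold higher in the colon (1.29 to 5.51). Cluster 11 carried the T cell genes Cd3e and Trdc, at 714 and 1365 CPM, beside 514 CPM of Klrd1.

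Ramp1, the accessory subunit that makes Calcrl a CGRP receptor, was higher in the colon in every marker-positive group. Over all cells small intestine Ramp1 stood at 102 CPM and colon Ramp1 at 418 CPM, 4.11-fold (3.90 to 4.35). It was seen in 1059 of 5490 and 4633 of 7549 cells, or 9.53% and 31.4% of cells thinned to 1000 UMIs. The gap was narrowest in Ccr6+ cells, at 284 and 585 CPM (2.06-fold, 1.83 to 2.32), and widest in Ncr1+ cells, at 34.6 and 345 CPM (9.99-fold, 8.43 to 11.9). Gata3+ cells had 77.2 and 418 CPM (5.41-fold), Klrd1+ cells 44.7 and 225 CPM (5.03-fold; in Klrd1 only cells, 31 and 120 in number, 1.35-fold with an interval of 0.628 to 3.31) and Cd3e+ cells 102 and 442 CPM (4.33-fold). Thus the spread between groups was wide in the small intestine and narrow in the colon, with the Ccr6+ group highest in each.

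Of the 7 genes with at least 20 UMIs over both libraries, 2 were at least 2-fold higher in the colon over all cells (Ramp1 and Nmur1), against 5.42% of all 11962 genes measured, and 2 in the small intestine (Vipr2 and Ret), against 8.92%. In Gata3+ cells 1 of 7 was higher in the colon by that measure (Ramp1; 4.4% of all genes) and 2 in the small intestine (Vipr2 and Ret; 7.42%). In Ccr6+ cells 1 of 5 was higher in the colon (Ramp1; 3.4%) and 3 in the small intestine (Vipr2, Ret and Adra2a; 7.47%). In Ncr1+ cells 1 of 5 was higher in the colon (Ramp1; 4.13%) and 0 in the small intestine (9.26%), where Ret reached 1.99-fold. In Klrd1+ cells 1 of 3 was higher in the small intestine (Ret; 7.17%) and 1 in the colon (Ramp1; 4.88%), and in Cd3e+ cells 3 of 5 (Calcrl, Vipr2 and Ret; 5.12%) and 1 (Ramp1; 4.27%). The Cd3e+ log2 ratio of Calcrl, 1.22, was -0.61 with at least 2 Cd3e UMIs. In cells with no marker 2 of 6 were higher in the small intestine (Vipr2 and Ret; 9.1%) and 2 in the colon (Calca and Ramp1; 4.26%).

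Ramp1 moved little with Gata3 in the colon, from 418 CPM at 0 Gata3 UMIs to 404 CPM at 3 or more, and was lower with more Gata3 in the small intestine, from 114 to 58.9 CPM. The colon excess therefore widened from 3.67-fold (3.43 to 3.92) to 6.86-fold (5.64 to 8.42). By cluster it ran from 107 to 612 CPM in the colon and from 14.4 to 265 CPM in the small intestine. Cluster 9 (Ptges, Arrdc4, Ccr6) and cluster 5 (H2-Aa, Ccr7, H2-Eb1), both with markers of lymphoid tissue inducer cells among their leading genes, had the highest small intestine levels, 218 and 265 CPM. Cluster 4 differed most, with a small intestine level of 14.4 CPM from 4 UMIs and a colon level of 282 CPM (19.6-fold, 7.63 to 72.2). Cluster 11, which carried T cell genes, was the exception, at 101 and 107 CPM (1.05-fold, 0.653 to 1.70). Free RNA held 163 and 435 CPM of Ramp1, which would add 8.75 and 35.9 CPM to cells, so the level of small intestine cluster 4 is not far above what free RNA would give.

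**Figure D3:**
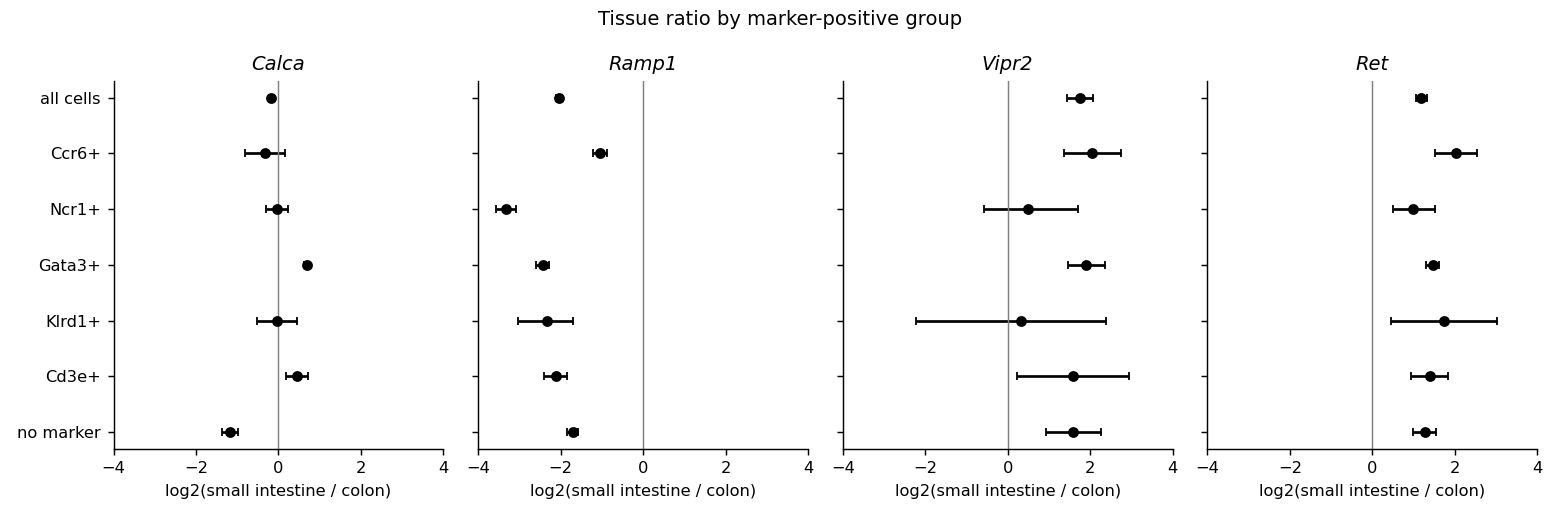
log2 of the small intestine to colon ratio (horizontal axis, 0 for equal levels) of Calca, Ramp1, Vipr2 and Ret by marker-positive group (vertical axis), with 95% intervals for counting error. Ramp1 is left of 0 in each group, Ret is right of 0 in each group, and Calca changes side between Gata3+ cells and cells with no marker.

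Calcrl, the ligand-binding subunit shared by the CGRP and adrenomedullin receptors, gave few UMIs, 79 from small intestine and 150 from colon cells. Its level was 5.24 CPM (4.15 to 6.53) and 6.72 CPM (5.68 to 7.88), and the tissues did not separate beyond counting error (0.78, 0.59 to 1.03). In Gata3+ cells it stood at 5.13 and 7.92 CPM, 1.54-fold higher in the colon with an interval from 0.998 to 2.47. In Gata3 only cells the colon was 2.06-fold higher (1.17 to 3.93) from 14 and 90 UMIs. Ccr6+ cells went the other way, with Calcrl 4.30-fold higher in the small intestine (1.14 to 24.0) from 11 and 3 UMIs. In Ccr6 only cells that interval included 1 (0.419 to 21.7). Both subunits were seen together in 25 small intestine and 106 colon cells. Calcrl had a UMI in 2.36% of small intestine cells with Ramp1 and 1.22% of those without, and in 2.29% and 1.37% in the colon, where cells with Ramp1 also had more UMIs (median 2740 against 2404). The colon cells with Ramp1 thus far outnumbered those in which Calcrl was seen, at a depth where a transcript of 1 UMI is often missed.

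Ramp3, which pairs with Calcrl for adrenomedullin, stood at 713 and 727 CPM (1.02-fold, 0.99 to 1.04), so the tissue difference of Ramp1 was not shared by this relative. Ramp2 had 1 and 20 UMIs. Adm, the adrenomedullin gene, was 2.07-fold higher in the small intestine (1.62 to 2.66) at 10.5 against 5.06 CPM. Calcb, which encodes the other form of CGRP, had 1 and 0 UMIs.

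Vipr2, the VPAC2 gene, was highest in Ccr6+ cells of each library and higher in the small intestine. It stood at 60.3 CPM (48.1 to 74.7) in small intestine and 14.7 CPM (9.42 to 21.9) in colon Ccr6+ cells, 4.11-fold (2.58 to 6.76). Over all cells the levels were 18.1 and 5.37 CPM (3.37-fold, 2.71 to 4.21) from 273 and 120 UMIs. Gata3+ cells had 19.9 and 5.33 CPM (3.74-fold) and Ncr1+ cells 6.32 and 4.48 CPM, where the interval of the ratio (0.67 to 3.23) included 1. Ccr6 only cells exceeded Gata3 only cells 3.10-fold (2.16 to 4.45) in the small intestine and 4.05-fold (1.97 to 7.67) in the colon. Cluster 5, led by MHC class II genes, Ccr7 and Cd4, had the highest level at 65.7 CPM in the small intestine against 10.5 CPM in the colon (6.29-fold, 3.83 to 10.2), and cluster 9 had 42.5 and 19.6 CPM, with only 6 colon UMIs. An antisense gene that overlaps Vipr2, Gm20658, had 0 and 1 UMIs.

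Vipr1, the VPAC1 gene, was close to absent from the counts. It had 2 UMIs in 5490 small intestine cells and 0 in 7549 colon cells, which, with a count of 0 taken to allow 3, limits the colon share of cells with a UMI to 0.0397%. Cells with Vipr2 were 249 and 117, so of the VIP receptors only Vipr2 was measurable here. Vip itself had 0 UMIs in these cells of either library.

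Nmur1, the neuromedin U receptor gene, was rare and found mainly in Gata3+ cells. It gave 25 UMIs in 24 small intestine cells and 80 UMIs in 79 colon cells. Gata3+ cells held 72.0% and 81.3% of them, at 3.55 CPM (2.11 to 5.61) and 4.81 CPM (3.71 to 6.13), and Ccr6+ cells had 0 and 1 UMIs. The colon was 2.16-fold higher over all cells (1.36 to 3.53), but the ratio within Gata3+ cells did not separate from 1 (1.35-fold, 0.79 to 2.43). The colon library had 55.9% Gata3+ cells against 29.9% in the small intestine. In cells with 0, 1 and 2 Gata3 UMIs the colon was 2.43-fold, 2.22-fold and 2.60-fold higher, with intervals that each included 1. In cells with no marker the colon was 3.20-fold higher (1.09 to 11.4) from 5 and 14 UMIs. In cells with at least 3 Gata3 UMIs the order was the other way, 6.17 against 4.54 CPM in the colon. The interval there was 0.611 to 2.82 for small intestine over colon.

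By cluster, Nmur1 levels were 8.23 CPM (6.00 to 11.0) in colon cluster 0, 9.70 CPM (5.01 to 16.9) in colon cluster 2 and 7.37 CPM (4.21 to 11.97) in small intestine cluster 8. Cluster 1, the highest for Calca, had 2.86 CPM of Nmur1 in the small intestine (2 UMIs) and 4.30 CPM (2.41 to 7.09) in the colon, and colon cluster 3 had 1.24 CPM (2 UMIs). The cluster 1 intervals overlap those of clusters 0, 2 and 8, and cluster 8 held 64.0% of the small intestine Nmur1 UMIs and 55.9% of those of Calca. Small intestine free RNA held 0 UMIs of Nmur1 and colon free RNA 5. Nmu, the gene of its ligand, had 0 UMIs in these cells.

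Ret was higher in the small intestine in each marker-positive group and was shared between Gata3+ and Ccr6+ cells. Gata3+ cells had 117 CPM (108 to 127) and 42.5 CPM (39.1 to 46.2), 2.75-fold (2.45 to 3.09). Ccr6+ cells had 109 CPM (92.5 to 128) and 26.9 CPM (19.6 to 36.2), 4.05-fold (2.88 to 5.80), and after thinning the Ccr6+ log2 ratio went from 2.02 to 2.97. Ncr1+ cells were lower, at 37.5 and 18.8 CPM (1.99-fold, 1.42 to 2.86), as were Klrd1+ cells at 25.5 and 7.64 CPM. The small intestine Gata3+ and Ccr6+ levels lie within each other's counting intervals. Gata3 only cells exceeded Ccr6 only cells by 1.28-fold (1.03 to 1.60) in the small intestine and 1.61-fold (0.997 to 2.79) in the colon.

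With more Gata3 UMIs per cell Ret went from 67.7 to 154 CPM in the small intestine and from 28.2 to 50.1 CPM in the colon. Its highest clusters were 1, 8 and 9 of the small intestine, at 175, 162 and 128 CPM; Il5 was among the leading genes of the first and Ccr6 of the last. In the colon the highest was cluster 2, at 67.9 CPM. Cluster 9 showed the widest tissue gap, 4.90-fold (2.47 to 11.4) from 8 colon UMIs. The co-receptors through which Ret binds its ligands were near 0, with 3 and 1 UMIs of Gfra1, 1 and 5 of Gfra2 and 4 and 0 of Gfra3, and the ligand gene Gdnf had 0.

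Adra2a was seen in 34 small intestine and 36 colon cells, with its highest level in Ccr6+ cells of both. Ccr6+ cells had 18.0 CPM (11.6 to 26.5) and 7.35 CPM (3.80 to 12.8), 2.44-fold higher in the small intestine (1.18 to 5.34), while Gata3+ cells had 0.79 CPM from 4 UMIs and 1.33 CPM from 18. Ccr6 only cells held 21 UMIs against 1 in the more numerous Gata3 only cells of the small intestine, and 4 against 8 in the colon. It was highest in the clusters named for Vipr2: 24.1 and 7.50 CPM in cluster 5 and 8.65 and 6.55 CPM in cluster 9. Every other cluster was at or below 1.32 CPM.

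**Figure D4:**
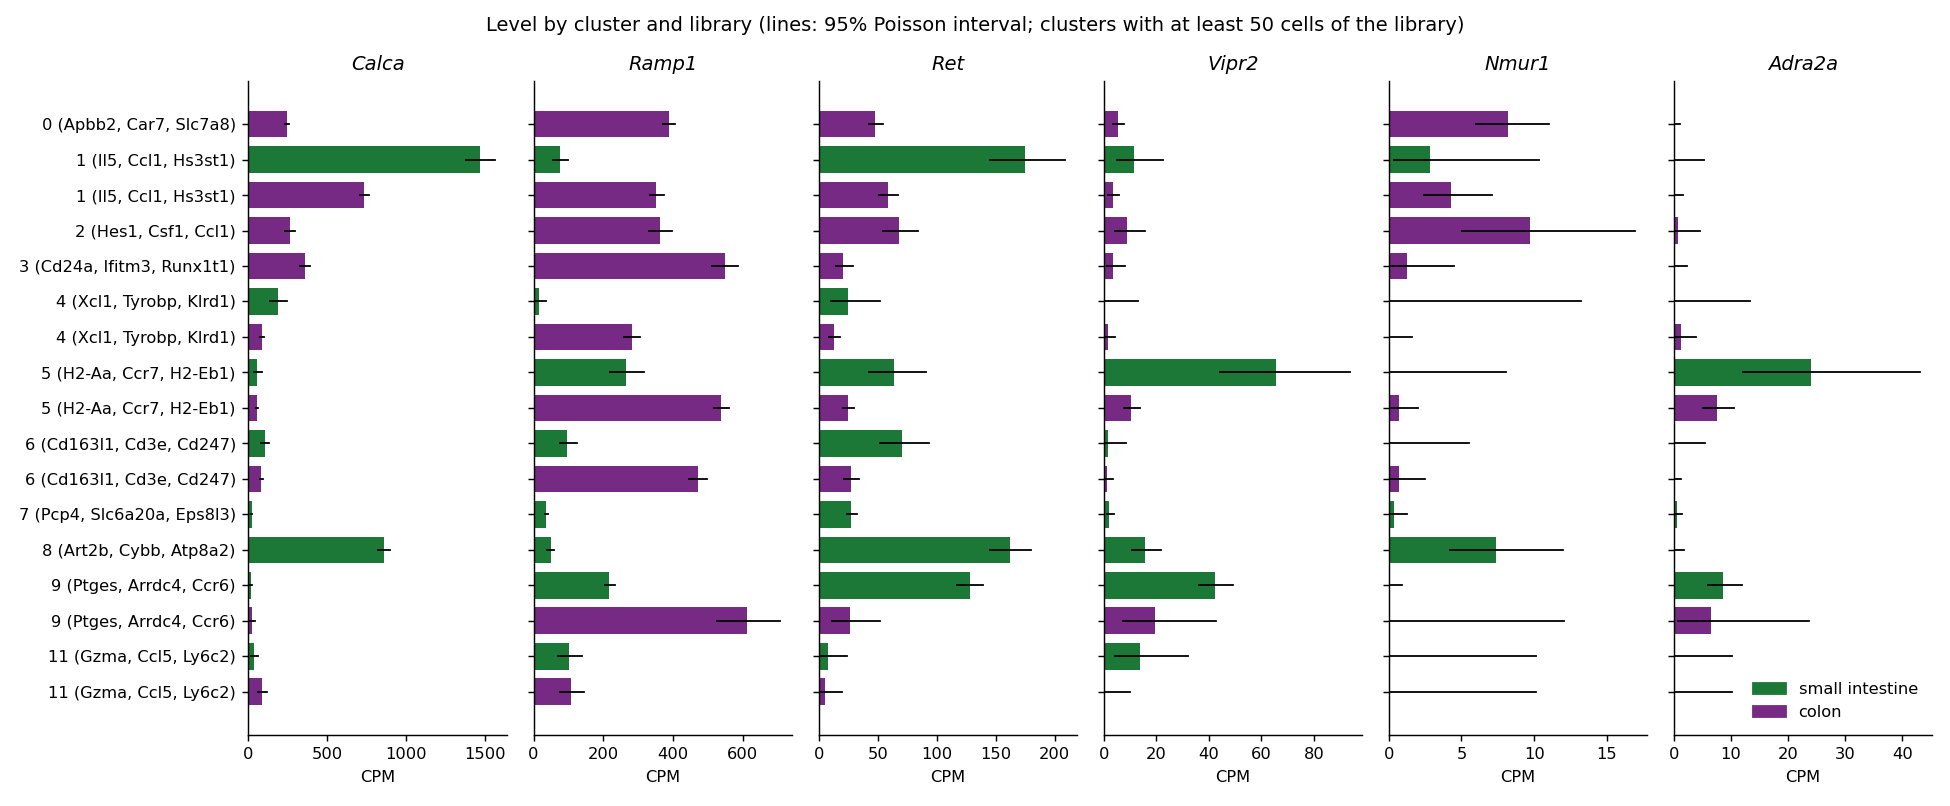
Level in CPM (horizontal axes, from 0) of 6 genes in each cluster with at least 50 cells of the library (vertical axis, cluster number and 3 leading genes), small intestine in green, colon in purple, lines for 95% Poisson intervals. Calca is highest in cluster 1, Ramp1 is higher in the colon in each shared cluster except 11, where intervals overlap, and Vipr2 and Adra2a share clusters 5 and 9.

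Some of these genes were seen in the same cells more often than in other cells. Ret had a UMI in 35.8% (32.2 to 39.4%) of small intestine cells with Calca and 15.6% of those without, and in 13.6% (12.05 to 15.3%) and 8.28% in the colon. Cells with Calca were somewhat deeper (median 3023 against 2520 UMIs, and 2800 against 2545 in the colon). By level, which corrects for depth, Ret was at 155 CPM in small intestine cells with Calca and 71.7 CPM in those without, and at 47.6 and 33.2 CPM in the colon. Of the 24 small intestine cells with Nmur1, 13 had Calca, and of the 79 colon cells 30 had it.

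Over all cells, Ramp1 was more frequent in cells with Adra2a or Vipr2. Of 34 small intestine cells with Adra2a, 23 had Ramp1, and of 36 colon cells 33 had it, against 19.3% and 61.4% of all cells. Vipr2 had a UMI in 8.78% of small intestine cells with Ramp1 and 3.52% of those without. Within small intestine Ccr6+ cells the Vipr2 shares were 13.1% with Ramp1 and 14.1% without. Ramp1 and Calca did not go together in the small intestine, where Ramp1 stood at 64.1 CPM in cells with Calca and 108 CPM in those without, and in the colon it stood at 397 and 425 CPM.

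Cytokine and transcription factor genes were set beside Calca within Gata3+ cells. Cells with Calca had more of the type 2 cytokine genes Il5 (3.53-fold, 2.77 to 4.51), Il13 (3.19-fold) and Il4 (2.72-fold) in the small intestine and less of Il22, the ILC3 cytokine gene (0.268 of the level without, 0.253 to 0.283). In the colon Il5 was 2.24-fold higher (2.09 to 2.41), Il13 1.63-fold and Il4 1.08-fold (0.97 to 1.20), with Il22 at 0.421 of the level without. Since a Gata3 UMI also marks some ILC3, the comparison was repeated in cells with at least 3 Gata3 UMIs, a choice made after the data had been seen, where Gata3 itself hardly differed (1.06-fold and 0.99-fold).

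In these cells, 278 with Calca and 230 without in the small intestine and 690 and 1061 in the colon, several differences narrowed. Small intestine Il5 was 1.42-fold higher (1.06 to 1.90), Il13 1.05-fold (0.75 to 1.48), Csf2, the gene of GM-CSF, 1.56-fold (1.39 to 1.74) and the growth factor gene Areg 1.28-fold (1.14 to 1.44). Colon Il5 was 1.84-fold higher (1.69 to 2.01), Il13 1.69-fold (1.41 to 2.04), Csf2 1.06-fold (0.99 to 1.14) and Areg 1.51-fold (1.41 to 1.62). Tph1, the first enzyme of serotonin synthesis, was 2.59-fold higher with Calca in the small intestine (1.36 to 5.26) and 5.20-fold higher in the colon (1.66 to 21.5) from 15 and 4 UMIs. The tissues thus shared Il5, Areg and Tph1 among the genes higher with Calca, while Csf2 and Il4 were so only in the small intestine by their intervals and Il13 only in the colon, a difference between tissues that was not tested.

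**Figure D5:**
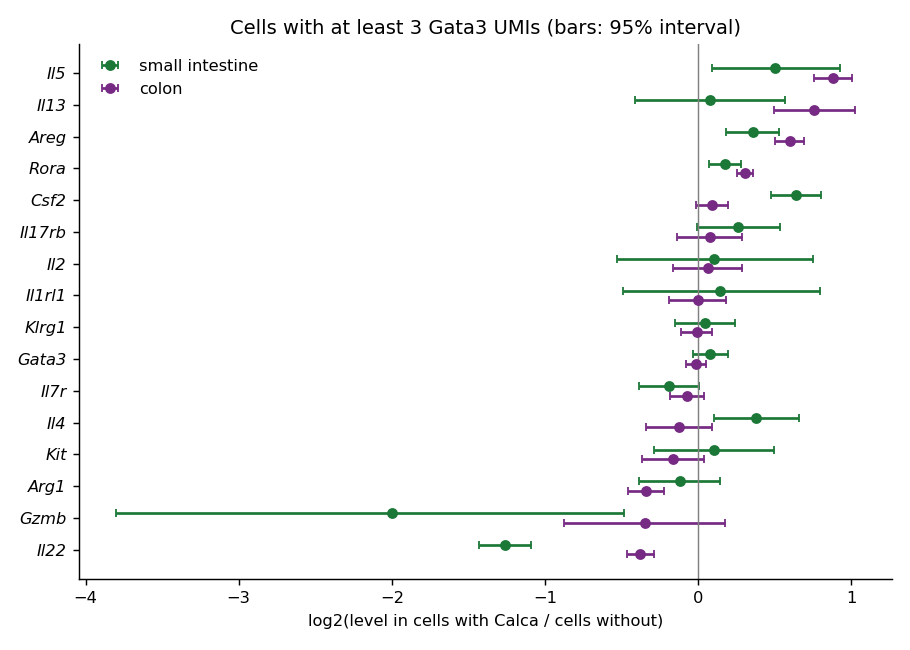
log2 ratio of the level in cells with a Calca UMI to the level in cells without (horizontal axis, 0 for equal) for the 16 of 24 effector genes with at least 20 UMIs in each library (vertical axis, ordered by the colon value), among cells with at least 3 Gata3 UMIs; small intestine green, colon purple, bars 95% intervals. Il5, Areg and Rora are right of 0 in both libraries with intervals that leave out 0, and Il22 is left of 0 in both.

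The same genes were set beside Ramp1, which had a UMI in 65.6% of colon Gata3+ cells with Calca and 64.5% of those without. Gata3+ cells with Ramp1 had more Cd4, which lymphoid tissue inducer cells carry, 9.01-fold (5.31 to 15.7) in the small intestine and 5.31-fold (3.50 to 8.42) in the colon, and more Il17f, 2.39-fold (1.70 to 3.33) and 4.09-fold (2.66 to 6.59). Il22 was 1.18-fold and 2.67-fold higher with Ramp1. At 3 or more Gata3 UMIs Il22 stayed 2.07-fold (1.83 to 2.33) and 3.65-fold (3.30 to 4.05) higher with Ramp1. Colon Il17f there was 3.27-fold higher with Ramp1 (1.70 to 7.05). The small intestine interval of Il17f included 1 (0.0109 to 3.46), from 1 UMI with Ramp1 and 9 without. Il5 was 1.54-fold higher with Ramp1 in those small intestine cells (1.11 to 2.10) and 1.01-fold in those colon cells (0.92 to 1.12). Gata3 itself was lower with Ramp1 in those cells of both libraries, at 0.777 (0.696 to 0.866) and 0.779 (0.743 to 0.816). The Ramp1 comparison was thus not matched for Gata3. Some type 2 genes besides Il5 were lower with Ramp1 in those colon cells. Il4 was at 0.737 of the level without (0.632 to 0.861), Il13 at 0.777 (0.639 to 0.948) and Areg at 0.807 (0.752 to 0.867). The small intestine intervals of Il4, Il13 and Areg included 1. Il17rb was lower with Ramp1 in both libraries, at 0.706 (0.537 to 0.916) and 0.771 (0.659 to 0.904). So was Tph1, at 0.249 (0.0497 to 0.768) and 0.0697 (0.0130 to 0.243), from 3 UMIs with Ramp1 in each library.

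Nmur1 cells were few, 17 small intestine and 64 colon cells among the Gata3+. Their Il22 level was 217 against 2477 CPM without Nmur1 in the small intestine and 138 against 1058 CPM in the colon. Il13 was 6.16-fold higher with Nmur1 in the small intestine (3.23 to 10.8) from 13 UMIs. These all lay in the 10 cells that had at least 3 Gata3 UMIs. Those 10 cells had 0 UMIs of Il5, and their Areg was at 0.283 of the level without Nmur1 (0.104 to 0.619). Colon Il13 was at 49.2 and 62.4 CPM, and colon Il5 was 0.502 of the level without (0.321 to 0.748). In colon Ccr6+ cells, the 39 with Ret had more Il5 (4.96-fold, 2.91 to 8.43) and Areg (3.28-fold, 2.46 to 4.35) than the 318 without. Those with Ret were deeper, with a median of 5278 against 3346 UMIs, and doublets were not removed. In small intestine Ccr6+ cells with Ret, Areg was at 51.0 against 49.1 CPM.

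A list of 119 genes for neuropeptide, neurotransmitter and neurotrophic signalling was examined for the context of these 8. Of these, 65 were outside the table and had 0 UMIs in the same cells, and 24 had at least 20 UMIs over both libraries, 17 of them outside the 8 genes. Of the 17, 6 passed a ratio of 2 towards the small intestine (8.92% of all genes measured did) and 4 towards the colon (5.42%). Higher in the small intestine were Adm (above), the aromatic amino acid decarboxylase gene Ddc (8.09-fold, 6.25 to 10.6), the neuropeptide Y receptor gene Npy1r (4.87-fold), Tph1 (4.81-fold), the neurotrophin receptor gene Ntrk3 (5.92-fold, from 16 and 4 UMIs) and the nicotinic receptor subunit gene Chrnb1 (2.25-fold). Higher in the colon were Adrb1, a beta adrenergic receptor (3.04-fold, 1.75 to 5.60), the serotonin receptor gene Htr1b (4.85-fold), the acetylcholinesterase gene Ache (34 UMIs against 2) and Ramp2. The median log2 ratio of the 24, small intestine over colon, was -0.01, against 0.20 for all genes. Within Gata3+ cells 4 of 15 such genes outside the 8 passed that ratio towards the small intestine (7.42% of all genes), Ddc (8.31-fold), Tph1 (7.68-fold), Npy1r (5.67-fold) and Chrnb1 (3.20-fold), and 3 towards the colon (4.4%), Htr1b (2.62-fold), Adrb1 (2.06-fold) and Ache (26 UMIs against 1). Within Ccr6+ cells 2 of 8 did towards the small intestine (7.47% of all genes), Adm (9.85-fold) and Ddc (3.97-fold), and 0 towards the colon (3.4%).

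Some of these receptors act through cyclic AMP, and 33 genes of that route or induced by it were listed too. Of 31 measured, 2 passed a ratio of 2 towards the small intestine, the clock gene Per1 (163 against 81.0 CPM, 2.01-fold, 1.89 to 2.14) and the phosphodiesterase gene Pde4a (2.10-fold), and 2 in the colon, Pde4d (2.22-fold, 1.71 to 2.90) and the adenylyl cyclase gene Adcy9 (28 UMIs against 5). These counts are near the shares over all genes measured, 8.92% and 5.42%. Their median log2 ratio was 0.01. Within Gata3+ cells 0 of 30 passed it towards the small intestine (7.42% of all genes) and 1 towards the colon (4.4%), Adcy9 (3.94-fold, from 21 colon UMIs and 2). Within Ccr6+ cells 4 of 28 passed it towards the small intestine (7.47% of all genes), the immediate early genes Nr4a1 (2.75-fold) and Dusp1 (2.20-fold), the protein kinase A subunit gene Prkar2a (2.05-fold) and Pde4a (2.93-fold), and 0 towards the colon (3.4%).

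Over 13 disjoint groups with at least 50 cells, the genes whose level ran most like a member's included Ccr4, Hs3st1 and Arhgef6 for Calca (Pearson r of log2 levels 0.94 for Ccr4), Trp53i11 and Blzf1 for Ramp1 (0.92 for Trp53i11), and Zmym2, Hmgn1 and Stab1 for Vipr2 (0.95 for Zmym2). For Nmur1 they were Fbxl21, Klf5 and Lgals7 (0.97 for Fbxl21), for Ret AI314180 and Tep1 (0.94 for AI314180), and for Calcrl Mrpl21, Rab21 and Wdcp (0.84 for Mrpl21). These points share 2 libraries and the markers that define them, and the values describe likeness only.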

How the data were processed

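Single-cell RNA sequencing with the 10x Genomics Chromium 3′ v2 kit was done on sorted IL7ra+ ILCs, 1 library per tissue. The deposited values are raw counts of UMIs per gene and cell, made with Cell Ranger 3.0.2 on mm10 per the submitters' processing notes; whether counting used strand is not given in the sources used here. A table of 17238 genes held the cells that the authors chose by an unstated rule, 5490 and 7549, and 0 of its values differed from the unfiltered matrices, which served to profile free RNA. Because counts are per gene, calcitonin and CGRP transcripts of Calca were not told apart.

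Counts were summed over the cells of a group and divided by all UMIs of those cells (CPM). The 95% intervals of levels are exact Poisson, those of shares Clopper-Pearson and those of ratios exact conditional binomial. They reflect counting error alone. The ratio intervals were run on simulated independent Poisson counts, which lack the uneven spread of UMIs over cells seen for Calca. That run therefore cannot show whether the intervals are wide enough for such genes. No ratio was taken where both sums were 3 UMIs or fewer, and a ratio used a floor of 3 counts where 1 sum was 0, and counts of genes past 2-fold used genes with at least 20 UMIs in the cells compared. No p-value was computed. Thinning used 1000 UMIs per cell and lost 0 cells. Barcodes of 10 to 50 UMIs gave the free RNA profile, and Igkc, Igha and Jchain its share in cells. Alternatives changed the marker minimum, the groups, the cells, the weighting, the scaling and the free RNA correction. No doublet caller was run.

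Clusters were made in scanpy 1.11.5 from both libraries together (10000 UMIs per cell, 2000 variable genes, 30 components, 15 neighbours, Leiden resolution 1), with the 8 genes kept out after the data had been seen. Cluster names other than numbers rest on fixed markers. Genes named besides the 8 were those of the pathway and cyclic AMP lists past 2-fold, and the 3 genes most correlated with each member of at least 100 UMIs over groups, on log2(CPM + 10), among genes with at least 200 UMIs. The genes and lists were chosen with earlier results of these data known. A few genes that these rules would name are not reported here. The plots were drawn with matplotlib 3.10.9.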

Additional observations from a re-analysis of the deposited data

Results flagged for a closer look

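Calca was the gene whose tissue difference took opposite directions between disjoint groups of cells. The ratio of small intestine to colon was 1.79 (interval 1.70 to 1.88) in Gata3 only cells and 1.51 (1.32 to 1.73) in cells with 2 or more of the 5 markers, but 0.442 (0.386 to 0.506) in cells with no marker and 0.638 (0.422 to 0.987) in Ncr1 only cells. The Ncr1 only levels were 28.7 and 44.9 CPM, of which free RNA would give 11.3 and 20.1 CPM. It was not subtracted from that ratio. In the larger Ncr1+ group the ratio was 0.972 (0.810 to 1.17). With 1 library per tissue the difference between groups was not tested.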

How the results depend on the processing

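With 1 pool of mice per tissue, tissue and library cannot be told apart, and low levels of Nmur1, Adra2a, Calcrl and Vipr1 are limited by depth. Marker minimum, disjoint groups, cells called from the unfiltered matrices, thinning, mean over cells, scaling, free RNA and T cell genes were varied for the tissue ratio. Ratios within clusters are in the report, beside those of the marker groups. Among alternative values of the leading results, 79 stayed within the counting interval of the reported value (counts of genes within 1.5 times), 45 moved and 1 whose interval had left out equality changed direction; of the other values 214 stayed and 45 moved.

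The log2 tissue ratio of Calca in Gata3+ cells, 0.68 as reported, was 1.13 with at least 2 Gata3 UMIs, 1.26 with at least 3, 0.84 in Gata3 only cells, 0.60 after thinning, 0.51 as a mean over cells, 0.50 scaled by the median ratio and 0.48 without cells that had a T cell gene. Ramp1, -2.44, was -2.68 with 2 and -2.78 with 3 Gata3 UMIs and -2.62 with that scaling. Nmur1, -0.44, turned to 0.44 with at least 3 Gata3 UMIs, with an interval that spans equality. Ret in Ccr6+ cells, 2.02, was 2.62 with at least 2 Ccr6 UMIs and 2.97 after thinning.

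For Gata3 only over Ccr6 only cells, at least 2 UMIs of the marker gave Calca 6.27 and 4.93 (small intestine and colon), Ramp1 -2.58 and -0.83 and small intestine Vipr2 -2.18; free RNA subtracted gave Calca 6.05 and 5.07. A minimum of 50 UMIs left 1 cyclic AMP gene higher in the colon over all cells and 0 in Gata3+ cells, 2 pathway genes higher in the colon in Gata3+ cells and 3 higher in the small intestine in Ccr6+ cells.

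With at least 3 Gata3 UMIs, a setting chosen after seeing the data as was thinning of co-detection, log2 ratios with Calca over without were, in the small intestine, Il5 0.50, Il13 0.0739, Il4 0.38, Areg 0.36, Csf2 0.64, Il17rb 0.26, Gata3 0.0794, Il22 -1.26 and Tph1 1.37. In the colon they were Il5 0.88, Il4 -0.13, Areg 0.60, Csf2 0.0892, Il17rb 0.0742 and Il22 -0.38, and Gata3 turned from 0.24 to -0.0146. Il22 with Ramp1 was 1.05 and 1.87, and with Nmur1 -1.35 and -2.13. After thinning, Calcrl with Ramp1 was 1.02 in the colon and Ret with Vipr2 1.27 in the small intestine. The cause was not tested. No paired analysis was possible because each tissue has 1 library.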
